A study of Arabidopsis thaliana with 12 samples.

Results

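The 39 nuclear genes for proteins of the plastid ribosome that are described here were measured by RNA-seq in Arabidopsis seedlings of 4 genotypes, with 3 libraries each. They were taken from the counts and the length-scaled values by their gene identifiers, and they are 39 of the 23784 genes in those tables. Of the 39, 26 encode proteins of the large (50S) subunit and 13 encode proteins of the small (30S) subunit. By the RefSeq annotation of TAIR10.1, 12 lie on chromosome 1, 5 on chromosome 2, 11 on chromosome 3, 2 on chromosome 4 and 9 on chromosome 5.

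The genotypes were *quintuple* (*cbp60b;c;d;e;f*, mutated in the CBP60b clade of calmodulin-binding transcription regulators), *octuple* (*epn;quintuple*, which carries the same 5 mutations with *eds1*, *pad4* and *ndr1*), *epn* (*eds1;pad4;ndr1*, mutated in 3 genes through which intracellular immune receptors signal) and WT. The labels name no treatment and no alleles. Each library came from pooled aerial parts of 20 to 30 seedlings, 2 weeks old and grown in 16 h of light. The study describes *quintuple* plants as dying at around this age or earlier, which limits every comparison with *quintuple*. The study calls its replicates independent but does not say whether the pools of a genotype were grown apart, so the p-values measure only the spread between these pools. The comparisons therefore ask how plastid ribosomal protein transcripts stand in the autoimmune *quintuple*, and how much of that remains once EDS1, PAD4 and NDR1 are also mutated.

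Plastids keep a ribosome of bacterial type, which translates the few proteins still encoded in the plastid genome, among them core subunits of the photosystems and the large subunit of Rubisco. The RNA of this ribosome and some of its proteins are encoded in the plastid, while the rest of its proteins are made in the cytosol from nuclear genes and imported. Most of these nuclear genes descend from the cyanobacterial ancestor, and a few, named PSRP, encode plastid-specific ribosomal proteins. Embryos or seedlings that lack a plastid ribosomal protein are often arrested or pale. Plastid-encoded genes were not analysed here.

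Depth ranged from 38698646 to 44294404 counted fragments per library, so that 3 counts correspond to 0.0580 to 0.0787 CPM, the counts scaled to depth with TMM factors. All 39 genes passed the filter on low counts in every comparison, with counts of 1408 to 38310. Transcripts of *EDS1* stood at 5.91, 7.43 and 8.87 CPM in *octuple* and 6.56, 4.39 and 4.14 CPM in *epn*, against 23.2, 17.9 and 22.3 CPM in WT. *PAD4* stood at 3.47, 3.00 and 3.54 CPM in *octuple* and 1.42, 1.14 and 1.44 CPM in *epn*, against 9.98, 4.82 and 4.66 CPM in WT. *NDR1* had 4.99, 3.42 and 4.94 CPM in *octuple* and 2.49, 2.47 and 6.14 CPM in *epn*, against 5.496, 5.57 and 7.97 CPM in WT, so that the *octuple* libraries lay below WT and the *epn* libraries overlapped with it. *CBP60b* transcripts were present in *quintuple* at 248, 222 and 154 CPM, against 42.2, 41.7 and 44.1 CPM in WT, so the level of this gene does not check the label. *CBP60c* was at 29.5, 35.1 and 33.3 CPM in *quintuple* and 31.7, 26.8 and 30.2 CPM in *octuple*, below the 47.9 to 51.9 CPM of *epn* and the 42.8 to 47.5 CPM of WT. *CBP60d* and *CBP60f* stood higher in *quintuple* (4.15 to 4.92 and 18.1 to 28.0 CPM) than in WT (2.44 to 3.84 and 6.43 to 13.0 CPM), and *CBP60e* stood lower (1.02 to 2.04 CPM in *quintuple* and 2.13 to 4.22 CPM in WT). The 4 leaf mesophyll markers, which check the label of aerial parts, summed to 3896 to 16924 CPM in *quintuple* and to 45736 to 66099 CPM in WT. Of 8 root markers, 7 were among the counted genes, and 1 passed the filter on low counts in *quintuple*-vs-WT. It was *BGLU22* for a beta-glucosidase, at 46.2, 96.0 and 96.8 CPM in *quintuple* and at most 0.13 CPM in WT (log2 fold change 10.35, adjusted p = 0.000182). *LRX1* was not among the counted genes, and *BGLU21*, which did not pass the filter, is not given by library. *CASP1*, *SHV2*, *EXPA7*, *EXPA18* and *WOX5* were at or below 0.47 CPM in every library.

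In WT the 39 genes had a median level of 396 FPKM, which also scales for gene length. High medians were those of *PSRP5* (662 FPKM) and *RPL29* (604 FPKM), and the lowest were those of *RPL19-2* (209 FPKM), *RPS10* (199 FPKM) and *PSRP1* (118 FPKM). Adjacent genes in this order overlapped between their WT libraries in 37 of 38 cases, the exception being *RPS10* and *PSRP1*. The median over the genes was 80.3 FPKM in *quintuple*, 352 FPKM in *octuple* and 409 FPKM in *epn*.

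The plastid ribosomal protein genes were strongly lowered in *quintuple*. Of the 39 genes, 38 were lower than in WT at an adjusted p below 0.05 (edgeR's quasi-likelihood test, Benjamini-Hochberg adjustment over all genes tested), each by at least 2-fold, against 27.7% of all genes tested that were lower and 19.5% that were lower by at least 2-fold. All 26 large subunit genes and 12 of 13 small subunit genes fell. The median log2 fold change was -2.61 over the large subunit genes and -2.54 over the small subunit genes, while the median over all genes tested was 0.00. Over the 39 genes the median was -2.58, a 5.97-fold difference, with an SD of 0.36 between genes. In these bulk samples, fewer cells rich in plastids and less RNA per cell cannot be told apart.

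*PSRP1* was the gene that was not called. With the replicate number as a block it was lower in *quintuple* as well, so that 39 of 39 genes were, against 28.3% of all genes. No library of *quintuple* reached the lowest WT library in 38 of the 39 genes, against 33.5% of all genes. Mean CPM in *quintuple* was 11.4% to 43.3% of the WT mean, with a median of 16.8%. Scaling to library size alone moved the median of all genes by 0.27 on the log2 scale and the split of all calls to 3925 lower and 6963 higher, against 5445 lower and 5767 higher with TMM, and the count of plastid ribosomal protein genes stayed at 38. Upper-quartile scaling gave 6296 lower and 4790 higher, and limma on log2(FPKM + 1) gave 4058 lower and 7041 higher, each with 38 of the 39 genes lower.

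**Figure D1:**
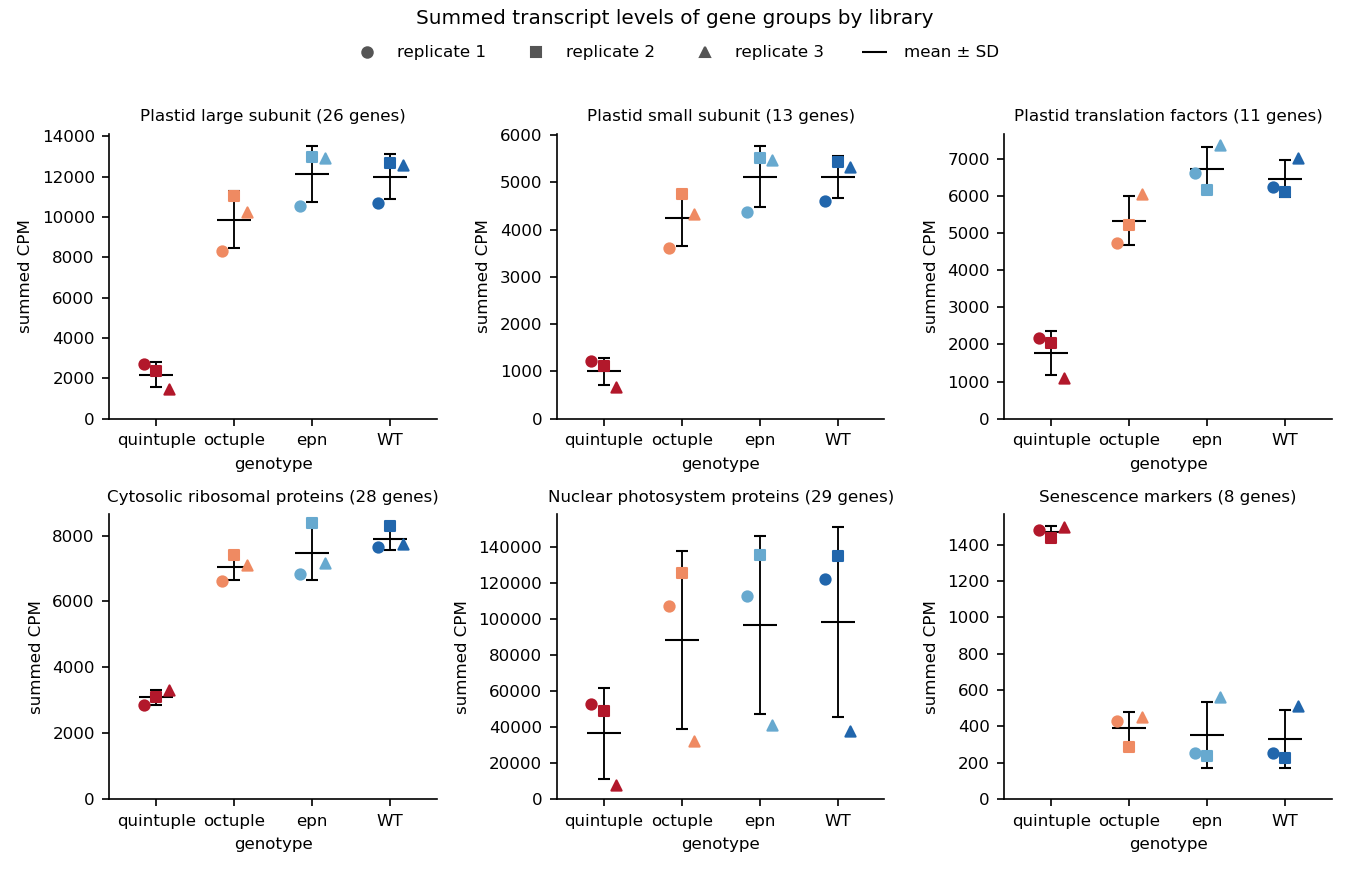
Summed CPM (vertical axes) of the large subunit genes, the small subunit genes and 4 other gene groups in each library of *quintuple*, *octuple*, *epn* and WT; points are libraries with a marker shape per replicate number, and lines are the mean ± SD of 3 libraries. The large subunit sum was 2689, 2368 and 1482 CPM in *quintuple*, against 10703, 12681 and 12594 CPM in WT, and the photosystem sum was low in replicate 3 of every genotype.

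*RPL34* showed the largest fall. It encodes a small basic protein of the large subunit and the gene (AT1G29070, chromosome 1, 10149791 to 10151407) lies on the plus strand in 2 exons. *RPL34* stood at 57.1, 51.9 and 33.2 CPM in *quintuple*, against 355, 437 and 459 CPM in WT. The log2 fold change was -3.14 ± 0.26 SE, adjusted p = 0.000349. The libraries of the 2 genotypes were far apart, and the other genotypes lay near WT, at 274, 399 and 339.7 CPM in *octuple* and 298, 422 and 466 CPM in *epn*.

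*RPL4*, *RPL3* and *RPL19-1* followed among the large subunit genes. *RPL4* (AT1G07320, chromosome 1, 2248967 to 2250529) encodes a protein that lines the exit tunnel in bacterial ribosomes. It had 85.2, 89.6 and 46.2 CPM in *quintuple*, against 481, 598 and 628 CPM in WT, a log2 fold change of -2.95 ± 0.31 SE, adjusted p = 0.000607. *RPL3* is the counterpart of a bacterial protein that starts the assembly of the large subunit. Its level was 118, 96.7 and 47.7 CPM in *quintuple*, against 553, 663 and 612 CPM in WT, a log2 fold change of -2.80 ± 0.36 SE, adjusted p = 0.00116. *RPL19-1* encodes a protein at the interface of the subunits in bacteria and was at 57.7, 44.7 and 33.6 CPM in *quintuple*, against 263, 326 and 352 CPM in WT (log2 fold change -2.79 ± 0.25 SE, adjusted p = 0.000407). In all 3 genes the highest *quintuple* library was below the lowest WT library by more than 4-fold.

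Among the small subunit genes, *RPS9* and *RPS21* fell most. RPS9 belongs to the head of the small subunit, where its bacterial counterpart contacts tRNA. *RPS9* was measured at 64.4, 62.2 and 33.1 CPM in *quintuple*, against 307, 381 and 356 CPM in WT, with a log2 fold change of -2.71 ± 0.29 SE, adjusted p = 0.000655. *RPS21*, also called *GHS1*, is known from mutants sensitive to glucose. It was found at 66.8, 42.9 and 36.6 CPM in *quintuple*, against 302, 348 and 299.99 CPM in WT, with a log2 fold change of -2.70 ± 0.26 SE, adjusted p = 0.000492. In both genes no libraries overlapped between *quintuple* and WT.

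The large subunit genes that fell least were *RPL31*, *RPL24* and *RPL1*. *RPL31*, for a protein that bridges the subunits in bacteria, had 89.4, 78.9 and 51.5 CPM in *quintuple*, against 301, 341 and 313 CPM in WT (log2 fold change -2.12 ± 0.23 SE, adjusted p = 0.000702). *RPL24*, whose bacterial counterpart starts large subunit assembly along with L3, had 162, 135 and 95.1 CPM in *quintuple*, against 442, 545 and 493 CPM in WT (log2 fold change -1.92 ± 0.24 SE, adjusted p = 0.00111). RPL1 forms the stalk by which spent tRNA leaves the bacterial ribosome. *RPL1* was at 249, 203 and 129 CPM in *quintuple*, against 642, 750.2 and 746 CPM in WT, a log2 fold change of -1.88 ± 0.29 SE, adjusted p = 0.00212. Even in *RPL1* every *quintuple* library was below every WT library. *RPL24* and *RPL1* each overlap a gene on the opposite strand that stood higher in *quintuple*, and the part of such reads in their counts was not tested. *ANK*, for an ankyrin repeat protein, covers 6.55% of the exons of *RPL24* and had 113, 77.9 and 160.2 CPM in *quintuple*, against 39.4, 14.0 and 7.10 CPM in WT. *TTA2* covers 8.74% of the exons of *RPL1* and had 114, 93.8 and 101 CPM in *quintuple*, against 53.4, 48.3 and 48.2 CPM in WT.

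*RPS1* and *PSRP1* were the least lowered small subunit genes. RPS1 binds mRNA at the start of translation in bacteria. *RPS1* stood at 261, 245 and 159 CPM in *quintuple*, against 697, 759 and 904 CPM in WT, a log2 fold change of -1.83 ± 0.27 SE, adjusted p = 0.00177. *PSRP1* (AT5G24490, chromosome 5, 8365601 to 8367460) encodes a protein related to bacterial factors that keep idle ribosomes inactive. It had 102, 86.6 and 27.6 CPM in *quintuple*, 184, 224 and 83.6 CPM in *octuple*, 183, 235 and 108 CPM in *epn* and 167, 233 and 99.2 CPM in WT. Replicate 3 was the lowest library in each genotype, and the *quintuple* and WT libraries overlapped. The log2 fold change of *PSRP1* was -1.21 ± 0.53 SE, adjusted p = 0.0908, and -1.33, adjusted p = 0.0105 with the replicate block.

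**Figure D2:**
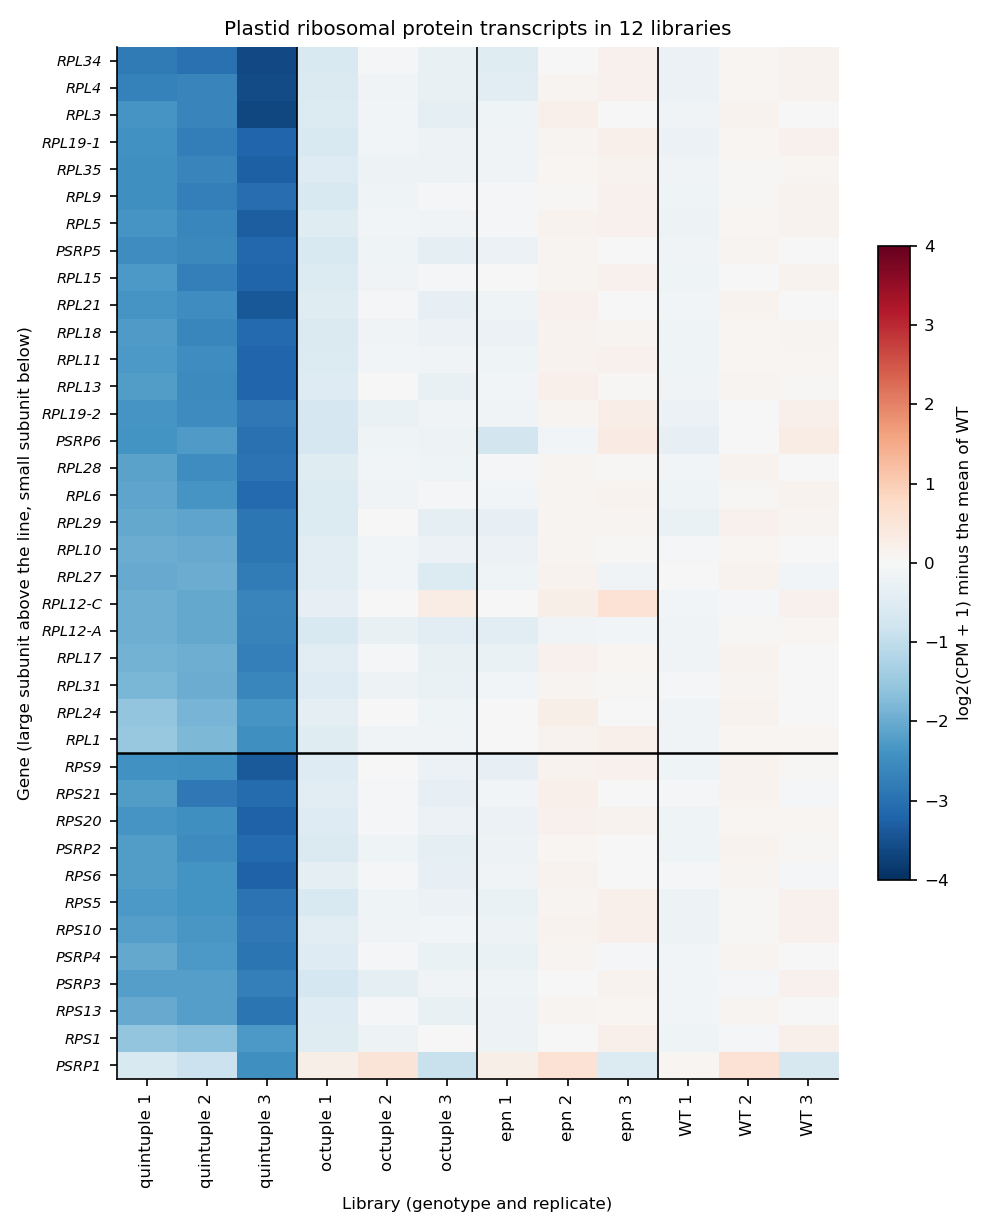
log2(CPM + 1) of 38 of the 39 genes minus the gene's mean over the WT libraries (colour scale, log2 units), with genes in rows, large subunit above the line, and the 12 libraries in columns from *quintuple* through *octuple* and *epn* to WT. The 3 *quintuple* columns are below the WT mean in every row, with replicate 3 the lowest of the genotype in each.

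The genes for the other plastid-specific proteins fell as well. *PSRP5*, for a large subunit protein, was at 82.0, 76.7 and 51.7 CPM in *quintuple*, against 426, 508 and 468 CPM in WT (log2 fold change -2.74 ± 0.23 SE, adjusted p = 0.000361). *PSRP6*, also of the large subunit, was at 41.5, 45.7 and 27.2 CPM in *quintuple*, against 178, 225 and 277 CPM in WT (log2 fold change -2.57 ± 0.27 SE, adjusted p = 0.000596). On the small subunit, *PSRP2* encodes an RNA-binding protein and *PSRP3* a protein shared with cyanobacteria. *PSRP2* had 72.8, 59.6 and 38.9 CPM in *quintuple*, against 304, 379 and 358 CPM in WT, with a log2 fold change of -2.60 ± 0.26 SE, adjusted p = 0.000559. *PSRP3* had 68.8, 68.3 and 47.3 CPM in *quintuple*, against 297, 312 and 358 CPM in WT and changed by -2.39 ± 0.20 SE, adjusted p = 0.000369. *PSRP4*, for a small basic protein of the head, was at 66.3, 55.9 and 36.1 CPM in *quintuple*, against 258, 304 and 280.4 CPM in WT (log2 fold change -2.41 ± 0.25 SE, adjusted p = 0.000592). The groups did not overlap in any of these 5 genes.

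Paralogues fell together. *RPL12-A* and *RPL12-C* encode the protein of the flexible stalk that recruits translation factors, and they lie close to each other on chromosome 3. *RPL12-A* (AT3G27830, chromosome 3, 10318455 to 10319920) stood at 148, 137 and 89.4 CPM in *quintuple*, against 512, 594 and 606 CPM in WT (log2 fold change -2.19 ± 0.25 SE, adjusted p = 0.00074). *RPL12-C* (AT3G27850, chromosome 3, 10324788 to 10325746) stood at 107, 101 and 65.8 CPM in *quintuple*, against 386, 403 and 471 CPM in WT (log2 fold change -2.20 ± 0.24 SE, adjusted p = 0.000642). The pair share sequence, so counts of the pair are uncertain where reads could fall to either. Of the 50-base stretches of *RPL12-C*, 24.8% occur in another gene, which is *RPL12-A*. Of those of *RPL12-A*, 20.9% occur in other genes, which are *RPL12-C* and *AT3G27831*, a gene that overlaps it on the opposite strand. *RPL19-2*, the paralogue of *RPL19-1*, was at 53.7, 48.3 and 37.5 CPM in *quintuple*, against 240.0, 284 and 322 CPM in WT (log2 fold change -2.60 ± 0.20 SE, adjusted p = 0.00032).

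Further genes fell within the same range. A set of 17 genes not given by library here ranged from *RPL35* (log2 fold change -2.78 ± 0.25 SE, adjusted p = 0.000407) to *RPL17* (log2 fold change -2.16 ± 0.28 SE, adjusted p = 0.00115), and the groups did not overlap in any of them. Genes with high and low WT levels fell alike. *RPL29* and *RPS10* complete the ends of the WT order. *RPL29*, for a protein near the tunnel exit in bacteria, had 119.6, 116 and 65.8 CPM in *quintuple*, against 417, 558 and 534 CPM in WT (log2 fold change -2.33 ± 0.29 SE, adjusted p = 0.000999). *RPS10*, for a protein of the head of the small subunit, had 70.2, 65.1 and 44.2 CPM in *quintuple*, against 284, 340.1 and 369 CPM in WT (log2 fold change -2.47 ± 0.23 SE, adjusted p = 0.000451). Across the 39 genes, which share libraries and depth, Spearman's rho of the WT median FPKM with the log2 fold change was 0.036.

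**Figure D3:**
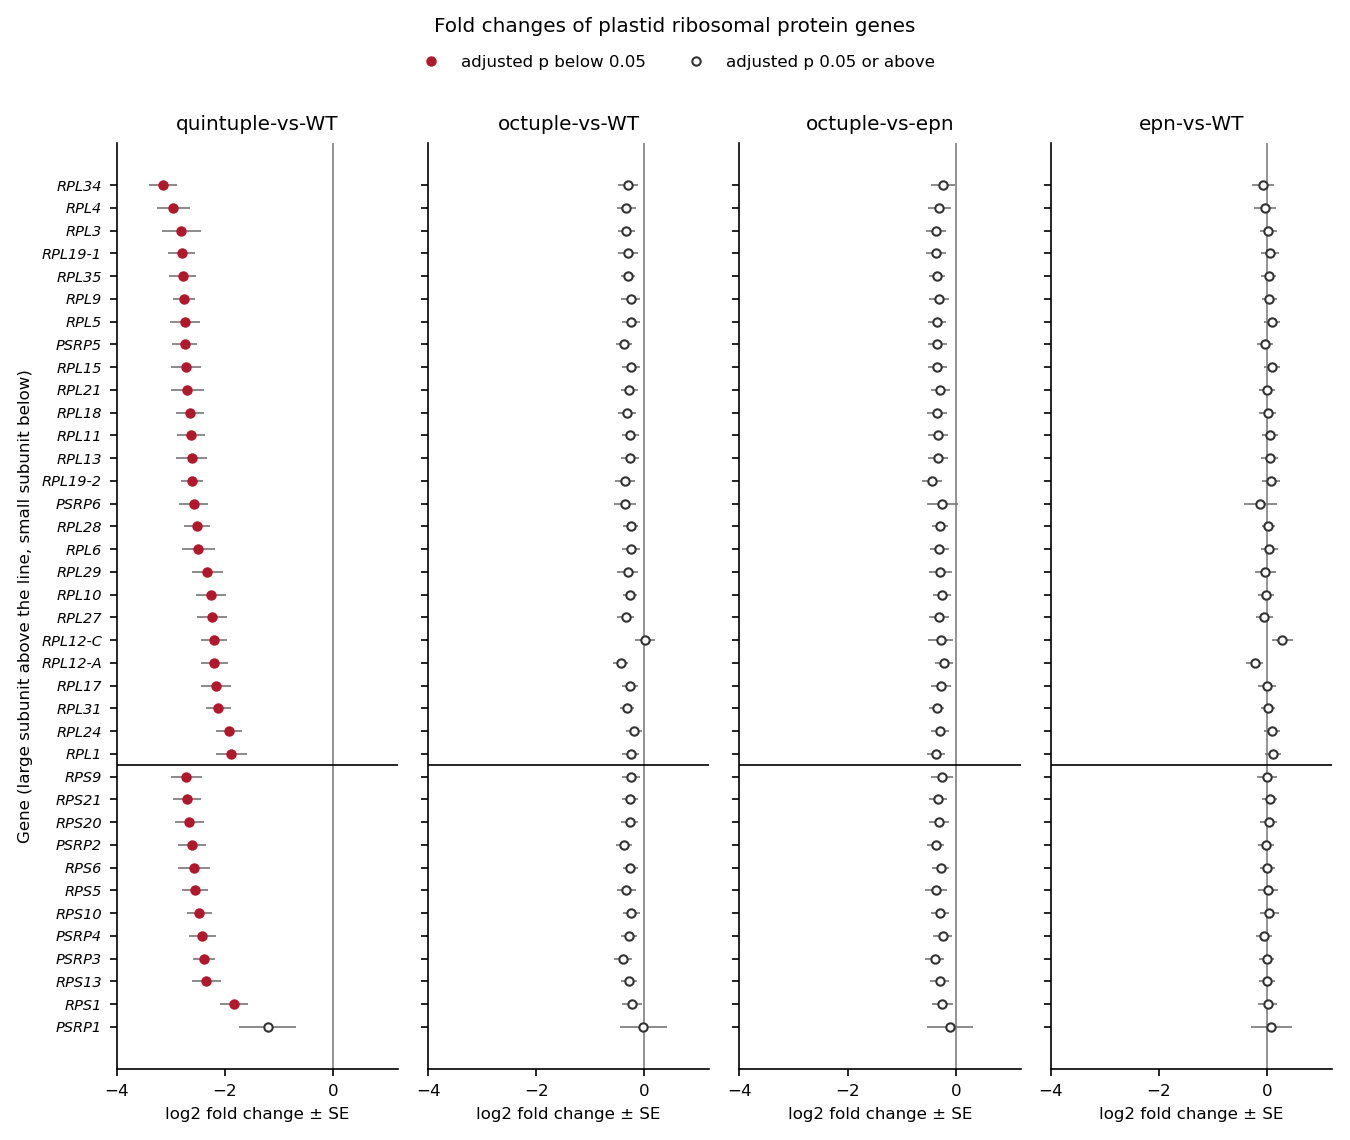
log2 fold change ± SE (horizontal axes, log2 units) of 38 of the 39 genes in *quintuple*-vs-WT, *octuple*-vs-WT, *octuple*-vs-*epn* and *epn*-vs-WT, 3 libraries a genotype; filled points have an adjusted p below 0.05. All but *PSRP1* are filled in *quintuple*-vs-WT, between -3.14 and -1.83, and none is filled in the other 3 comparisons.

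Since these genes moved together, the 300 bases before the annotated transcript start of each gene were read from the RefSeq TAIR10.1 genome for motifs known from genes of translation, light and immunity. The motifs were site II (TGGGCC or TGGGCT), the telo-box (AAACCCTA), the G-box (CACGTG), the W-box (TTGACC or TTGACT) and CCAATC, each on both strands, and a TGGGCCCA holds overlapping site II matches on both strands. The windows of 4 genes are shown, 5′ to 3′, with every match in capitals. They are those of *RPL34*, which fell most, of *RPS9*, which fell most in the small subunit, of *PSRP4*, which holds the most kinds of motif, and of *PSRP1*, which was not called and holds no match. Genes that were called also had windows without a match, among them *RPL24*, *RPL12-A* and *RPS1*.
RPL34 (chr1:10149491-10149790, plus strand): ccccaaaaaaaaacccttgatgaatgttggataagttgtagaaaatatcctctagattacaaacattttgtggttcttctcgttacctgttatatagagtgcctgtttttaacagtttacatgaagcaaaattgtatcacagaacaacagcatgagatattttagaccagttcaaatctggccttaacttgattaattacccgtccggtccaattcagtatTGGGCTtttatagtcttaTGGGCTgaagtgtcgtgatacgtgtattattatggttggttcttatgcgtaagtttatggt
RPS9 (chr1:28159318-28159617, minus strand): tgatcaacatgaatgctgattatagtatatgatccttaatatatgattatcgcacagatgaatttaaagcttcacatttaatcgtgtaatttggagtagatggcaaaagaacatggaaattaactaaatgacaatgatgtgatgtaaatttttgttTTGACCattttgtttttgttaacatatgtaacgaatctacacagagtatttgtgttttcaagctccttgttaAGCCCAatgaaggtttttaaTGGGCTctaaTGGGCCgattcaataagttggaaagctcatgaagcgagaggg
PSRP4 (chr2:15980548-15980847, plus strand): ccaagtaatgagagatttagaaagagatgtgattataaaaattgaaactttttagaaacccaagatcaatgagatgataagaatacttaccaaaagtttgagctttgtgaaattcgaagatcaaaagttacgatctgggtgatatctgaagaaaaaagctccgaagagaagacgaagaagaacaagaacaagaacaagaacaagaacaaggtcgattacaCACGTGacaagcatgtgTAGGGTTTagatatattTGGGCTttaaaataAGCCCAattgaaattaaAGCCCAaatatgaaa
PSRP1 (chr5:8365301-8365600, plus strand): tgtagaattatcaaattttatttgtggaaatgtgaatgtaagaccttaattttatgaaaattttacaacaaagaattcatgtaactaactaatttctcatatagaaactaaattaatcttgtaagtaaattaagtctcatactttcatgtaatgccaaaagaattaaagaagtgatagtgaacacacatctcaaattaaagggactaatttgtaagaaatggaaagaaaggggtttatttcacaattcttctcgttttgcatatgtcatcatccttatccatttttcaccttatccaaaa
In *RPL34* the 2 capital stretches are site II matches, in *RPS9* there are 3 site II matches and 1 W-box match, and in *PSRP4* there are 3 site II matches, 1 G-box and 1 telo-box. The windows can reach into a neighbouring gene, and a match is not a binding site.

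Site II occurred in 14 of 39 windows (35.9%), against 22.1% of the windows of 23783 protein-coding genes. It was found before 6 of 26 large subunit genes (23.1%) and 8 of 13 small subunit genes (61.5%), and before 18 of 28 genes of a fixed list of cytosolic ribosomal proteins (64.3%). The telo-box occurred in 5 of 39 (12.8%), against 4.64% of all. The W-box, which WRKY factors bind, occurred in 9 of 39 (23.1%), against 32.2% of all. A G-box was present in 4 windows (all genes 7.73%) and CCAATC in 5 (all genes 12.4%). *RPL34*, *RPL4* and *RPL3*, with the largest falls, hold site II, W-box with telo-box, and CCAATC in their windows, so that no motif is common to them.

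Large and small subunit genes fell by nearly the same amount. Within each library the median log2 CPM relative to the WT mean was -2.29, -2.49 and -3.08 over the large subunit genes in *quintuple*, and -2.22, -2.38 and -2.96 over the small subunit genes. The difference, large minus small, was -0.06, -0.11 and -0.13 in *quintuple*, -0.02, -0.03 and 0.03 in *octuple*, 0.05, -0.00015 and -0.01 in *epn* and 0.01, -0.04 and 0.04 in WT. The summed FPKM of the large over the small subunit genes was 2.43, 2.36 and 2.43 in *quintuple*, 2.47, 2.48 and 2.54 in *octuple*, 2.61, 2.52 and 2.53 in *epn* and 2.49, 2.49 and 2.54 in WT. The *quintuple* libraries lay just below the WT libraries in this ratio. Without *PSRP1* the ratio was 2.62, 2.53 and 2.53 in *quintuple*, against 2.57, 2.59 and 2.58 in WT, and the genotypes overlapped, so the lower ratio of sums rests on that gene. The difference of the medians did not, since without *PSRP1* it was -0.06, -0.10 and -0.06 in *quintuple*, -0.02, -0.03 and 0.03 in *octuple*, 0.06, 0.01 and -0.02 in *epn* and 0.01, -0.04 and 0.03 in WT, with every *quintuple* library below all others.

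Other genes of plastid gene expression fell as well, and those named are given with the log2 fold change and adjusted p in *quintuple*-vs-WT. Of the other nuclear genes listed for plastid ribosomal proteins, the 2 tested were lower in *quintuple*, as were 27.7% of all genes: *SSR16* (-2.10, adjusted p = 0.000999) and *PSRP3/2* (-1.82, adjusted p = 0.00216). Against the same share, plastid translation factors were lower in 10 of 11 cases with a median log2 fold change of -1.96, among them *AT2G24060* for an initiation factor of the IF3 type (-2.38, adjusted p = 0.000348) and *RRF* for the ribosome recycling factor (-2.32, adjusted p = 0.000286). The initiation factor gene *FUG1* changed least of the genes called (-1.22, adjusted p = 0.0171), and *AT4G30690*, a further IF3 gene, was not called (-0.59, adjusted p = 0.157). Ribosome assembly factors were lower in 12 of 12 cases (median -1.54), with *AT5G66470* at -2.15, adjusted p = 0.00033, *EMB269* at -2.003, adjusted p = 0.000693, *RH39*, for an RNA helicase, at -1.33, adjusted p = 0.000606 and *emb2738* at -1.19, adjusted p = 0.00144.

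The plastid transcription machinery was lower in 17 of 20 genes (median -1.67), against 27.7% of all genes. *FLN2* (-3.12, adjusted p = 0.000188) and *PTAC12* (-2.34, adjusted p = 0.00043), which encode proteins associated with the plastid-encoded polymerase, were lowest. The sigma factor genes *SIGC* (-0.29, adjusted p = 0.366) and *SIGE* (0.97, adjusted p = 0.432) were highest and did not pass the test, although *SIGE* was higher with the replicate block (adjusted p = 0.0126). Of 6 regulators of chloroplast genes, the GATA factor genes *GNC* (-1.85, adjusted p = 0.0121) and *CGA1* (-1.52, adjusted p = 0.00811) were lowest and fell, as did 27.7% of all genes. *GLK2* and *GUN1*, also on this list, are not given here, so no count called is given for it. *HY5* (-0.11, adjusted p = 0.868) and *GPRI1*, also called *GLK1* (0.11, adjusted p = 0.842), were not called, and their signs changed with the scaling.

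Cytosolic ribosomal protein genes also fell, in 28 of 28 listed cases against 27.7% of all genes, with a median log2 fold change of -1.39. *RPL16A* had -2.23, adjusted p = 0.000304 and *AT2G19730* had -1.66, adjusted p = 0.000395, while *STV1* (-1.04, adjusted p = 0.00224) and *AT5G27700* (-1.02, adjusted p = 0.000695) were the least lowered. The summed FPKM of plastid over cytosolic ribosomal protein genes was 1.47, 1.21 and 0.70 in *quintuple*, 1.97, 2.34 and 2.24 in *octuple*, 2.39, 2.42 and 2.80 in *epn* and 2.20, 2.40 and 2.52 in WT. The *quintuple* libraries were thus the lowest in this ratio and did not overlap with any other genotype.

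Nuclear photosystem genes had a median of -1.45 in *quintuple*-vs-WT, but 2 of 29 passed the test, a smaller share than the 27.7% of all genes that were lower. With the replicate block 28 of 29 passed, against 28.3% of all genes. Their summed level was 52914, 48917 and 7560.2 CPM in *quintuple*, against 122300.0, 134639 and 37633 CPM in WT, and replicate 3 was the lowest library in both genotypes. *PSBQA* (-2.47, adjusted p = 0.0106) and *NPQ4* (-1.93, adjusted p = 0.0131) fell, and *PSBQ-2* (-0.99, adjusted p = 0.29) and *PSBR* (-0.78, adjusted p = 0.301) were nearest to 0. Leaf mesophyll markers were lower in 2 of 4 cases (median -2.42), and in 4 with the block (median -2.58), with *RBCS3B* at -2.85, adjusted p = 0.0152, *CA1* at -2.52, adjusted p = 0.0166, *RBCS1A* at -2.33, adjusted p = 0.0504 and *CAB1* at -1.83, adjusted p = 0.233. Of 8 senescence and chlorophyll breakdown markers in the counts, 7 were tested. Of these 7, 6 were higher (median 1.81), against 29.3% of all genes, from *SAG13* (6.87, adjusted p = 0.00635) and *RNS1* (4.56, adjusted p = 0.00762) to *BFN1* (1.16, adjusted p = 0.0249). *NYC1*, for chlorophyll b reductase, was not called (0.48, adjusted p = 0.571). The leaf and senescence markers moved with the plastid ribosomal protein genes in the same libraries, and their part in the result was not tested.

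The added loss of EDS1, PAD4 and NDR1 was accompanied by levels near those of WT. In *octuple*-vs-*quintuple*, 38 of 39 genes were higher, each by at least 2-fold, against 24.5% of all genes tested that were higher and 16.7% that were higher by at least 2-fold. The median log2 fold change was 2.33 over the large subunit genes and 2.25 over the small subunit genes. *RPL34* had 274, 399 and 339.7 CPM in *octuple*, against 57.1, 51.9 and 33.2 CPM in *quintuple* (log2 fold change 2.86 ± 0.27 SE, adjusted p = 0.00112). *RPL9*, for a protein at the base of the RPL1 stalk in bacteria, had 237, 322 and 352 CPM in *octuple*, against 65.1, 53.3 and 42.8 CPM in *quintuple* (log2 fold change 2.53 ± 0.24 SE, adjusted p = 0.0011). Every *octuple* library was far above every *quintuple* library in both genes.

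The other genes with the smallest p in that comparison were *RPL19-2*, *RPL35*, *PSRP5* and *RPS10*. *RPL35*, for a small protein of the large subunit, was at 221, 276 and 276 CPM in *octuple*, against 57.8, 49.8 and 32.2 CPM in *quintuple* (log2 fold change 2.498 ± 0.25 SE, adjusted p = 0.0012). The log2 fold changes of *RPL19-2* (2.28 ± 0.22 SE, adjusted p = 0.0011), *PSRP5* (2.40 ± 0.24 SE, adjusted p = 0.00119) and *RPS10* (2.26 ± 0.23 SE, adjusted p = 0.0012) were alike. *PSRP1* was not called (log2 fold change 1.22 ± 0.55 SE, adjusted p = 0.111) and was called with the block (1.30, adjusted p = 0.00552). This comparison and *quintuple*-vs-WT share the *quintuple* libraries.

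The difference between the effect of the 5 *cbp60* mutations in the *epn* background and their effect in the WT background was tested as an interaction over the 12 libraries. It was above 0, with a smaller fall in the *epn* background, in 38 of 39 genes, each by at least 2-fold, against 17.6% of all genes tested and 13.9% at 2-fold or more. The median difference was 2.25 on the log2 scale. In *RPL34* it was 2.91 ± 0.35 SE, adjusted p = 0.000356, and in *RPL9* it was 2.46 ± 0.28 SE, adjusted p = 0.00026. *PSRP1* had the smallest difference (1.11 ± 0.73 SE, adjusted p = 0.273), which passed the test with the replicate block (1.15, adjusted p = 0.00834).

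**Figure D4:**
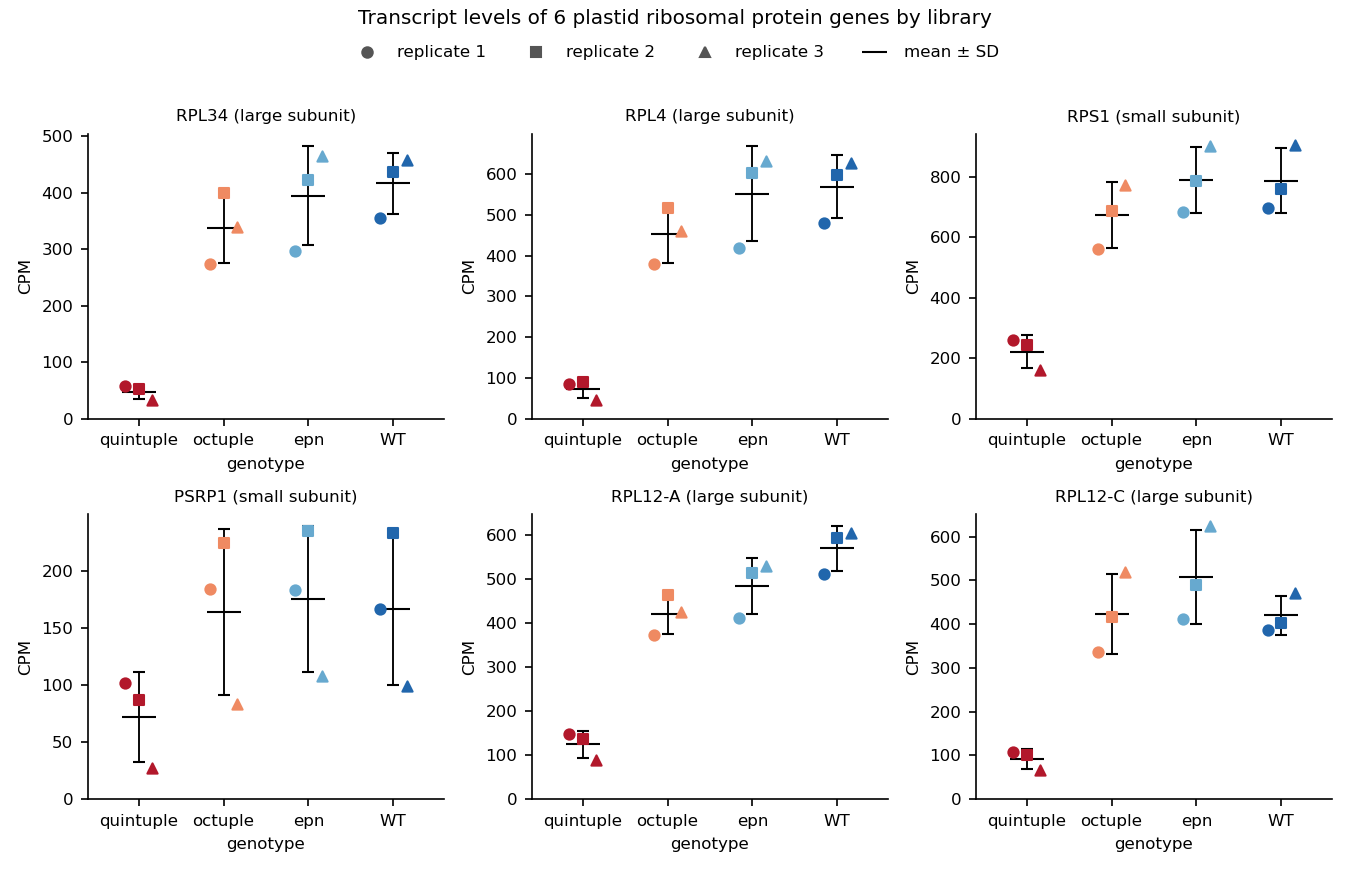
CPM (vertical axes) of *RPL34*, *RPL4*, *RPS1*, *PSRP1*, *RPL12-A* and *RPL12-C* in each library of *quintuple*, *octuple*, *epn* and WT, with the mean ± SD of 3 libraries and a marker shape per replicate number. *RPL34* ranged from 33.2 to 57.1 CPM in *quintuple* and was at least 274 CPM in every other library, while the *PSRP1* libraries of the genotypes overlapped.

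A small remainder in *octuple* depended on how replicates were treated. Without the block, 0 of 39 genes were called in *octuple*-vs-WT by edgeR's quasi-likelihood test, against 0.229% of all genes lower. An unadjusted p below 0.05 was found for 4 of them, against 4.77% of all genes lower, and DESeq2 called 1 as lower, against 1.24% of all genes. With the replicate number as a block, 35 of 39 were lower (24 of 26 large and 11 of 13 small subunit genes), against 5.44% of all genes. Over all genes, same-number libraries of *octuple*, *epn* and WT deviated together, while replicates 1 and 2 of *quintuple* were not clearly told apart. Among the 39 genes, replicate 1 was lowest in 37 in *octuple* and 36 in WT, whereas replicate 3 was lowest in 39 in *quintuple*. In *octuple*-vs-WT, 37 of 39 genes were lower in *octuple* in each of the 3 same-number pairs, against 27.0% of all genes. Without pairing, *octuple* and WT libraries did not overlap in 6 of 39, against 9.18% of all genes. The median log2 fold change was -0.29 over the large and -0.27 over the small subunit genes, against -0.01 over all genes, and mean CPM in *octuple* was 73.9% to 101% of the WT mean.

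*RPL12-A* had the lowest fold change in *octuple*-vs-WT, with 374, 464 and 427 CPM in *octuple*, against 512, 594 and 606 CPM in WT (log2 fold change -0.44 ± 0.14 SE, adjusted p = 0.225, and -0.44, adjusted p = 0.00594 with the block). *RPL12-C* had the highest, with 336, 416 and 519 CPM in *octuple*, against 386, 403 and 471 CPM in WT (log2 fold change 0.01 ± 0.19 SE, adjusted p = 0.988). The paralogues of the stalk protein thus stood at the 2 ends of this comparison. With the block, *PSRP3* (-0.40, adjusted p = 0.016) and *PSRP2* (-0.38, adjusted p = 0.00984) were among the genes called, whereas *RPL24* (adjusted p = 0.0789), *RPS1* (adjusted p = 0.0556), *RPL12-C* (adjusted p = 0.988) and *PSRP1* (adjusted p = 0.741) were not.

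Against *epn*, which shares the *eds1*, *pad4* and *ndr1* mutations, the log2 fold changes in *octuple* were again mostly just below 0. No gene of the 39 was called in *octuple*-vs-*epn* by edgeR's quasi-likelihood test or by DESeq2, against 0.177% and 1.08% of all genes lower. An unadjusted p below 0.05 was found for 2, which is near the 4.91% of all genes lower. With the block 13 were lower (10 large and 3 small subunit genes), against 3.32% of all genes. The median log2 fold change was -0.31 over the large and -0.29 over the small subunit genes, against -0.03 over all genes. Libraries did not overlap in 8 of 39, against 8.48% of all genes, and 37 were lower in each same-number pair, against 24.9%. *RPL19-2* was lowest, with 175, 233 and 253 CPM in *octuple*, against 255, 301 and 333 CPM in *epn* (log2 fold change -0.44 ± 0.18 SE, adjusted p = 0.338, and -0.45, adjusted p = 0.0175 with the block). *PSRP1* was nearest to 0, with 184, 224 and 83.6 CPM in *octuple*, against 183, 235 and 108 CPM in *epn* (log2 fold change -0.10 ± 0.42 SE, adjusted p = 0.956).

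Genes of plastid gene expression stood at similar small differences in *octuple*. None of the related lists' genes was called lower in *octuple*-vs-WT or *octuple*-vs-*epn* without the block. With the block, 5.44% of all genes were lower against WT and 3.32% against *epn*. In the same order of comparisons, 2 and 0 of 2 other nuclear genes of plastid ribosomal proteins were lower, 8 and 6 of 11 translation factors were lower, 6 and 2 of 12 assembly factors, 9 and 6 of 20 genes of the transcription machinery, 3 and 0 of 28 cytosolic ribosomal protein genes and 2 and 0 of 29 photosystem genes, the last of these near or below the share of all genes. The medians in *octuple*-vs-WT and *octuple*-vs-*epn* were -0.40 and -0.26 for the other nuclear genes, -0.29 and -0.42 for translation factors, -0.25 and -0.32 for assembly factors, -0.27 and -0.36 for the transcription machinery, -0.16 and -0.09 for cytosolic ribosomal proteins, and -0.14 and -0.16 for photosystem genes.

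The root marker *BGLU22* and the senescence markers *SAG13* and *RNS1* stood higher in *octuple* beside this remainder, and their part in it was not tested. They were picked after their values were seen. *CASP1*, *SHV2*, *EXPA7*, *EXPA18* and *WOX5* stayed at the low levels given above, and *BGLU21* and the other senescence markers are not given for *octuple*. *BGLU22*, the root marker named above, had 3.16, 2.97 and 0.71 CPM in *octuple*, against at most 0.12 CPM in *epn* and 0.13 CPM in WT. It was called in *octuple*-vs-WT (log2 fold change 5.22, adjusted p = 0.048) and *octuple*-vs-*epn* (5.23, adjusted p = 0.0471), where 1.99% and 2.47% of all genes were higher. Both calls were lost when any 1 library other than *octuple* replicate 3 was left out, with adjusted p of 0.0916 to 0.188 in *octuple*-vs-WT and 0.0676 to 0.194 in *octuple*-vs-*epn*. *SAG13* had 152, 40.3 and 38.9 CPM in *octuple*, against 9.63, 4.82 and 0.73 CPM in *epn* and 15.9, 1.66 and 0.52 CPM in WT. It was not called in *octuple*-vs-WT (3.69, adjusted p = 0.275) or *octuple*-vs-*epn* (3.93, adjusted p = 0.118), and was called with the block in both (4.30, adjusted p = 0.00127, and 4.05, adjusted p = 0.000594). *RNS1*, for a ribonuclease, was not called in *octuple*-vs-WT (4.95, adjusted p = 0.0818) and was called with the block (5.03, adjusted p = 0.000727). Its levels by library and its result against *epn*, the matched background, are not given here, so its rise is stated against WT only. With the block 10.0% of all genes were higher against WT and 8.52% against *epn*. No leaf mesophyll marker was called in either comparison, with or without the block, and without it their median was -0.12 in both.

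The *epn* mutations alone left the plastid ribosomal protein genes near WT. In *epn*-vs-WT, edgeR's quasi-likelihood test called 0 of 39 genes and 0 of all genes (0% in each direction), and DESeq2 called 0 of the 39. DESeq2 called 0.158% of all genes lower and 0.0484% higher. None of the 39 had an unadjusted p below 0.05, against 1.28% of all genes lower (244) and 0.921% higher (175). The block called 137 lower and 54 higher genes of all, 0.721% and 0.284%, with none of the 39 among them. The medians were 0.02 over the large and 0.00 over the small subunit genes. The range ran from *RPL12-A*, at 411, 514 and 529.8 CPM in *epn*, against 512, 594 and 606 CPM in WT (log2 fold change -0.23 ± 0.16 SE, adjusted p = 1), to *RPL12-C*, at 411, 489.6 and 624 CPM in *epn*, against 386, 403 and 471 CPM in WT (log2 fold change 0.28 ± 0.19 SE, adjusted p = 1).

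Within each genotype the same replicate was the lowest library in nearly all 39 genes, but this replicate was another in *quintuple* than in the other genotypes. In *quintuple*, replicate 3 was the lowest library in 39 of 39 genes and replicate 1 the highest in 35. Replicate 1 was the lowest in 37 genes in *octuple*, in 38 in *epn* and in 36 in WT. The 39 genes together took 0.41%, 0.39% and 0.27% of counted fragments in *quintuple*, 1.14%, 1.44% and 1.53% in *octuple*, 1.43%, 1.67% and 1.86% in *epn* and 1.40%, 1.63% and 1.84% in WT. The large subunit sum averaged 2180 CPM in *quintuple*, against 11992 CPM in WT, 5.501-fold lower, and the small subunit sum 1004 CPM in *quintuple*, against 5122 CPM in WT, 5.10-fold lower.

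Some of the genes overlap others on the opposite strand, and the strand setting of the counting is not given in the sources used here, so reads could not be told apart there. *RPL10* and *PSRP5* overlap RNAs that are not among the counted genes, over 51.4% and 25.8% of their exons. *AT3G25910* covers 6.64% of the exons of *RPL15*. It was at 43.8 to 51.4 CPM in *quintuple* and 28.6 to 31.7 CPM in WT, while mean CPM of *RPL15* in *quintuple* was 15.3% of the WT mean. *RIC1*, for a partner of small GTPases, covers 68.0% of *RPL28* and was at 0.20 to 0.52 CPM in *quintuple* and 0.85 to 1.40 CPM in WT. *CXE16*, for a carboxylesterase, covers 26.5% of the exons of *RPS13* and was at 22.1 to 24.4 CPM in *quintuple* and 19.1 to 20.8 CPM in WT. *AT5G24500* covers 12.2% of the exons of *PSRP1* and was at 17.4 to 20.4 CPM in *quintuple* and 11.4 to 13.4 CPM in WT.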

How the data were processed

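RNA-seq of pooled aerial parts of seedlings was analysed for *quintuple*, *octuple*, *epn* and WT. The files deposited by the authors hold unnormalised fragment counts, and FPKM values, which divide the counts by exon length and by the library's total. The processing notes name HISAT2, HTSeq and R 3.2.0, and the versions of the aligner and counter, the build and the strand setting are not given in the sources used here. Lengths implied by FPKM equalled the RefSeq TAIR10.1 exon lengths (within 0.5 base) for 18953 of 18953 genes checked, and all 23784 gene identifiers were found in that annotation, from which coordinates, names and upstream sequences were taken.

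Calls were made in R 4.3.3 with edgeR 4.0.16 (TMM, filterByExpr, quasi-likelihood test, Benjamini-Hochberg) on the 6 libraries of each comparison, or all 12 for the interaction. The fit was also run on simulated data with 200 genes changed. Far more genes were called in *quintuple*-vs-WT, so that run does not check the scaling or the calls there. A call has an adjusted p below 0.05. SEs are the size of the log2 fold change, without prior count, over the square root of the quasi-likelihood F. DESeq2 1.42.0, limma 3.58.1 on log2(FPKM + 1), other scalings, no filter, and each replicate left out were alternatives. The members and lists were chosen with earlier results of these data known, so no list was tested.

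Replicate numbers come from the sample titles. Deviations of same-number libraries from their genotype means correlated at 0.266 to 0.903 in 18 pairs. For different numbers the range was -0.717 to 0.408 in 36, and it is pushed down because deviations within a genotype cancel out. Between *octuple* and WT the same-number values were 0.707, 0.604 and 0.844, above every different-number value. *Quintuple* replicate 1 correlated more with replicate 2 of *octuple* (0.358) and WT (0.357) than with their replicate 1 (0.307 and 0.304). With *epn* the order was reversed (0.225 against 0.410). One-to-one pairing is thus not established for *quintuple*. Results of the blocked fit are added where a call differs. No libraries were copies, since fewer than 0.8% of genes had equal counts. The 3-count limit in CPM covers counting error only.

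Genes named by library were, in *quintuple*-vs-WT, the 4 large and 3 small subunit genes lowest and the 3 large and 2 small highest in log2 fold change, in other comparisons up to 6 called genes with the smallest p and the extremes, the 3 highest and 3 lowest in WT FPKM, the paralogue pairs and *PSRP1* to *PSRP6*, except that 1 gene is counted among the 39 but not reported here by name. From each other list they were the 2 lowest and the 2 highest in *quintuple*-vs-WT. Markers named in *octuple* and the mutated and overlapping genes were chosen after their values were seen.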

Additional observations from a re-analysis of the deposited data

Results flagged for a closer look

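The effect of the *cbp60* mutations differed between the *epn* background and the WT background in 38 genes of the 39 by the interaction test of edgeR, which set *octuple* minus *epn* against *quintuple* minus WT on the log2 scale. Of all genes tested, 17.6% were called with a difference above 0, and 13.9% with one of at least 2-fold. Among the large subunit genes the difference was 2.91 in *RPL34*, 2.46 in *RPL9*, 2.44 in *RPL35*, 2.43 in *RPL19-1*, 2.41 in *PSRP5*, 2.34 in *PSRP6*, 2.24 in *RPL28*, 2.17 in *RPL19-2*, 2.05 in *RPL29*, 1.99 in *RPL12-A* and 1.94 in *RPL12-C*. Among the small subunit genes it was 2.25 in *PSRP2*, 2.19 in *RPS10*, 2.18 in *PSRP4* and 2.01 in *PSRP3*. Each of these was positive, meaning a smaller fall in the *epn* background.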

How the results depend on the processing

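The counts of 38 genes in *quintuple*-vs-WT, *octuple*-vs-*quintuple* and the interaction stayed between 38 and 39 under every alternative run, leaving out each replicate in turn included (38 to 38). In *octuple*-vs-WT the count of 0 became 35 with the replicate block and 1 with DESeq2, and in *octuple*-vs-*epn* it became 13 with the block. In *epn*-vs-WT it remained 0 throughout. The block changed no other count of calls among the 39 genes by more than 1.5 times, and it moved those at an unadjusted p below 0.05 to 37, 34 and 2 in *octuple*-vs-WT, *octuple*-vs-*epn* and *epn*-vs-WT, against 4, 2 and 0 without it. The share of all genes at an unadjusted p with the block is not given, so these counts do not set the 39 genes apart. Over all genes the block raised lower calls at an adjusted p below 0.05 from 44 to 1047 in *octuple*-vs-WT. In *octuple*-vs-*epn* they rose from 34 to 639. Upper-quartile scaling moved the median of all genes in *quintuple*-vs-WT by -0.15 and log2(FPKM + 1) moved it by 0.21 on the log2 scale. Leaving out each replicate in turn moved the median log2 fold change in *quintuple*-vs-WT between -2.77 and -2.40 (large subunit) and between -2.67 and -2.32 (small subunit), and that of *octuple* against WT between -0.40 and -0.18 and between -0.39 and -0.19. *RBCS3B* and *CA1* lost their calls without *quintuple* replicate 2, and *BFN1* lost its call when *quintuple* replicate 1 or 3, or WT replicate 1 or 2, was left out. In *octuple*, *BGLU22* also lost its calls with limma on log2(FPKM + 1) and, against WT, with upper-quartile factors, while DESeq2 called *RNS1* against WT and *SAG13* against *epn*.

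Log2 fold changes that turned their sign belonged to genes that were not called, and the cause was not tested. In *quintuple*-vs-WT, *HY5* was 0.057 with the replicate block, 0.14 with library size only, 0.27 with limma on log2(FPKM + 1) and 0.29 with replicate 3 of both genotypes left out, where *SIGC* was 0.064. *GPRI1* was -0.046 with the block and -0.059 with upper-quartile factors. In *octuple*-vs-WT, *RPL12-C* was -0.0021 with the block, -0.032 with upper-quartile factors and -0.060 with replicate 3 of both genotypes left out, and *PSRP1* was 0.0091 with library size only and 0.038 with replicate 3 of both genotypes left out. With each replicate left out in turn, *HY5* ranged from -0.47 to 0.63, *GPRI1* from -0.21 to 0.47 and *NYC1* from -0.047 to 1.53 in *quintuple*-vs-WT. For *octuple* against WT, *RPL12-C* ranged from -0.15 to 0.15 and *PSRP1* from -0.31 to 0.31. In *octuple*-vs-*epn*, *PSRP1* ranged from -0.39 to 0.22 and *PSRP6* from -0.48 to 0.041. In *epn*-vs-WT the ranges were -0.062 to 0.14 for *RPL19-1*, -0.029 to 0.18 for *RPL19-2*, -0.13 to 0.047 for *PSRP5*, -0.42 to 0.11 for *PSRP6*, -0.11 to 0.047 for *PSRP2*, -0.11 to 0.070 for *PSRP3*, -0.15 to 0.038 for *PSRP4*, -0.19 to 0.40 for *PSRP1*, -0.057 to 0.16 for *RPS10* and -0.15 to 0.098 for *RPL29*. With 3 libraries a genotype, differences as small as those of *octuple* from WT were called in numbers only with the block.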

Other observations

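The balance of the stalk protein paralogues differed between genotypes. The ratio of FPKM of *RPL12-C* to *RPL12-A* was 1.26, 1.25 and 1.70 in *octuple* and 1.40, 1.33 and 1.64 in *epn*, against 1.01, 1.03 and 1.03 in *quintuple* and 1.05, 0.95 and 1.09 in WT. The 6 libraries with the *eds1*, *pad4* and *ndr1* mutations were thus all above the 6 without them, a pattern chosen after its values were seen and not tested, in genes that share sequence. The ratio of *RPL19-1* to *RPL19-2* was 1.41, 1.5002 and 1.30 in *octuple* and 1.34, 1.35 and 1.30 in *epn*, against 1.31, 1.13 and 1.09 in *quintuple* and 1.33, 1.40 and 1.33 in WT. Replicates 2 and 3 of *quintuple* were the lowest of the 12 libraries in that ratio.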
